A study of Mus musculus with 16 samples.

Results

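The posterior genes of the HoxA cluster, Hoxa9, Hoxa10, Hoxa11 and Hoxa13, were followed in 16 immortalised lines of mouse embryonic fibroblasts (MEFs). These 4 genes, of 54453 in the table, were picked on measured values, because they varied among the MEF-1 clones, and were found by symbol in the mm10 annotation. The lines go back to sibling C57BL/6J embryos taken at E13.5, a male for MEF-1 and a female for MEF-2, whose fibroblasts were passaged serially until they had come through crisis. Each parental line, MEF-1 and MEF-2, was sequenced together with 7 clonal lines, each raised from 1 cell isolated by flow cytometry and expanded by passaging to larger plates. The labels name no treatment and no engineered allele, and each line has 1 library of total RNA depleted of ribosomal RNA. Clonal lines of 1 embryo are the replicates in all tests, so that the p-values measure the spread between clones, and embryo, sex and parental line cannot be told apart.

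Hox genes encode homeodomain transcription factors that give cells of the embryo their position along the body and limb axes. The genes of a cluster are used in their order on the chromosome, from the 3′ end (anterior) to the 5′ end (posterior, with Hoxa13 as the last), and in the limb bud Hoxa9 and Hoxa10 act proximally, Hoxa11 in the middle segment and Hoxa13 in the hand and foot. Cultured fibroblasts keep part of the Hox pattern of the place they were taken from. The clusters are held silent by Polycomb proteins and kept active by Trithorax-type complexes.

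The HoxA cluster lies on mouse chromosome 6, minus strand, and Hoxa2 to Hoxa13 cover chr6:52162417-52260880 (mm10). The 4 posterior genes take up the last 37.8 kb, with Hoxa9 at chr6:52223100-52231089, Hoxa10 at chr6:52231197-52240854, Hoxa11 at chr6:52242106-52245810 and Hoxa13 at chr6:52257694-52260880. The start regions of the 4 genes are shown because the genes were followed together and the regions differ widely in CpG content, the kind of dinucleotide that carries DNA methylation, which was not analysed here. Each sequence is the RefSeq promoter entry (GRCm38.p6, minus strand, 5′ to 3′) from 250 bases before to 50 bases after the transcript start, with every CG in capitals. The windows are chr6:52227321-52227620 for Hoxa9, whose RefSeq start lies inside the longer gene of the annotation, chr6:52240805-52241104 for Hoxa10, chr6:52245761-52246060 for Hoxa11 and chr6:52260831-52261130 for Hoxa13.
Hoxa9: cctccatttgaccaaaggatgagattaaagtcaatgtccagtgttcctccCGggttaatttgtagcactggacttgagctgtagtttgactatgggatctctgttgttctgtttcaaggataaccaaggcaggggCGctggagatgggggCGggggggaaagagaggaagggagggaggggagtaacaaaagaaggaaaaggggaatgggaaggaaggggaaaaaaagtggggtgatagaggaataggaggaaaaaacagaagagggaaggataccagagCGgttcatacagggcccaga
Hoxa10: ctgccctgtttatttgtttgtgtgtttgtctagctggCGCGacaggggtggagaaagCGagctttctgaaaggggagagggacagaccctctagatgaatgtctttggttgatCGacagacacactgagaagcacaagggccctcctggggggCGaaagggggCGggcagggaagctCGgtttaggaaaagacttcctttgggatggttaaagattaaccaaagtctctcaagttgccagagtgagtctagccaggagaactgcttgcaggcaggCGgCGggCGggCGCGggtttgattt
Hoxa11: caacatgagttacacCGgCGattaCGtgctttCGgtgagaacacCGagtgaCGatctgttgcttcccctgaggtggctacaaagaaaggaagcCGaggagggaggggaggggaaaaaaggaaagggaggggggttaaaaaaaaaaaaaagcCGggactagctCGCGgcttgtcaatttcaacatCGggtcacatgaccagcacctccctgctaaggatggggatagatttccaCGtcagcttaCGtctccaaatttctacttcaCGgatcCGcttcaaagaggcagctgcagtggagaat
Hoxa13: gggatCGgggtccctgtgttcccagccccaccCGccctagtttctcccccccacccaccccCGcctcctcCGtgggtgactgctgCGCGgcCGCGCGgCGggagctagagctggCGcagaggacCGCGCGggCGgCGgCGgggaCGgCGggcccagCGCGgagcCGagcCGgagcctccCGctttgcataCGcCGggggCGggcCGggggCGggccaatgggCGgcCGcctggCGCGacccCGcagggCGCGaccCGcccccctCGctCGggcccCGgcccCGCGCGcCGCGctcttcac
The Hoxa9 window held 4 CG, the Hoxa10 window 12, the Hoxa11 window 15 and the Hoxa13 window 45, against a median of 7 over 32851 mouse promoter windows of 300 bases. Of all windows, 68.6% held at least as many CG as Hoxa9, 39.6% as many as Hoxa10, 34.6% as many as Hoxa11 and 1.93% as many as Hoxa13. The share of G and C was 49.7% in the Hoxa9 window and 81% in that of Hoxa13 (median of all windows 52.7%). The letters TATAAA, searched on both strands, were in none of these 4 windows. They were in the window of a second Hoxa10 transcript (chr6:52234890-52235189, 21 CG), as in 13.6% of all windows.

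The authors deposited for each line a regularised log (rlog) value of every gene, that is, the log2 of the count scaled to library size and drawn towards the mean of the gene. This transformation was inverted, and the whole counts behind the values came back for 30673 of 30853 genes with reads (99.4%), all 4 posterior genes among them. The totals of the libraries were 77657012 to 136103907 counts, so that a floor of 3 counts stands at 0.0220 to 0.0386 counts per 1000000 counts of the library (CPM), and intervals of counts cover counting error only. The 11 fibroblast markers, with Col1a1, Fn1, Col1a2, Col3a1 and Vim as the highest in the MEF-1 clones, summed to 39261 to 71049 CPM. In this list Thy1 had 0 to 4 counts in the MEF-1 clones and 6 to 714 in the MEF-2 clones. The parental lines were above their clones, with 79 Thy1 counts in MEF-1 and 6417 in MEF-2. Within this list Dcn (−4.74), Lum (−3.68), Pdgfra (−1.85) and Col3a1 (−0.60) were higher in the MEF-1 clones and Thy1 (2.59) in the MEF-2 clones (log2, MEF-2 minus MEF-1, limma). Markers of endothelial, immune, neural, muscle and pluripotent cells summed to at most 5.27 CPM per list in any line, and epithelial markers to 1.90 to 7.45 CPM with Krt14 left out, as its counts were not recovered. Cartilage markers, Col2a1 and Acan above all, reached 1490 to 14188 CPM. Of these, Col9a1 (−3.16, limma, adjusted p = 0.000203) and Matn1 (−3.15, adjusted p = 0.000406) were higher in the MEF-1 clones, and Col2a1 and Acan did not pass. They summed to 1567, 7702 and 4014 CPM in MEF-1 clones 1, 4 and 5 and to between 1490 and 8114 CPM in the other MEF-1 clones, and the part of either marker list in the results below was not tested.

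Among the MEF-1 clones, the posterior genes ran from 0 counts to at most 3508, and the same clones stood high for all 4. Hoxa9, a gene of the trunk and proximal limb, had 76 counts in the parental line and 181, 36, 18, 864, 261, 15 and 33 counts in clones 1 to 7. This is 0.979 CPM in the parental line and 1.39, 0.348, 0.198, 9.06, 2.01, 0.134 and 0.340 CPM in the clones. Clone 4 stood highest, then clones 5 and 1, and the other 4 clones were below the parental line.

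Hoxa10, which acts in the proximal limb and the reproductive tract, had 115 counts in the parental line and 876, 76, 41, 3508, 925, 10 and 18 counts in clones 1 to 7. In CPM, Hoxa10 was at 1.48 in the parental line and at 6.72, 0.735, 0.452, 36.8, 7.12, 0.0894 and 0.185 in the clones. The order of the lines was the same at the top, and clones 6 and 7 were at the bottom.

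Hoxa11, needed for the middle segment of the limb and for the kidney, had 13 counts in the parental line and 67, 3, 2, 1815, 277, 6 and 0 counts in MEF-1 clones 1 to 7. Hoxa11 thus reached 19.0 CPM in clone 4 and 2.13 CPM in clone 5, against 0.514 CPM in clone 1 and 0.167 CPM in the parental line. Clones 2, 3, 6 and 7 were at or close to the floor of counting.

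Hoxa13, the last gene of the cluster and a gene of the digits and the urogenital tract, had 1 count in the MEF-1 parental line and 17, 1, 0, 266, 39, 0 and 0 counts in clones 1 to 7. Clone 4 was at 2.79 CPM, clone 5 at 0.300 CPM and clone 1 at 0.130 CPM. In the parental line and the other clones, at most 1 count was found, which is within the limit that a count of 0 allows.

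In MEF-2, none of the posterior genes rose above a few counts in any line. Hoxa9 had 3 counts in the MEF-2 parental line and 0 to 7 in the clones (median 2), and Hoxa10 had 3 in the parental line and 0 to 11 in the clones (median 2). Hoxa11 had 1 count in the parental line and 0 to 6 in the clones (median 1), and Hoxa13 had 0 in the parental line and 0 or 1 in the clones. Summed over all 8 MEF-2 libraries, the counts were 19 for Hoxa9, 27 for Hoxa10, 13 for Hoxa11 and 2 for Hoxa13. RNA was taken from whole lines, and fewer cells with the transcript cannot be told apart from less transcript per cell.

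**Figure D1:**
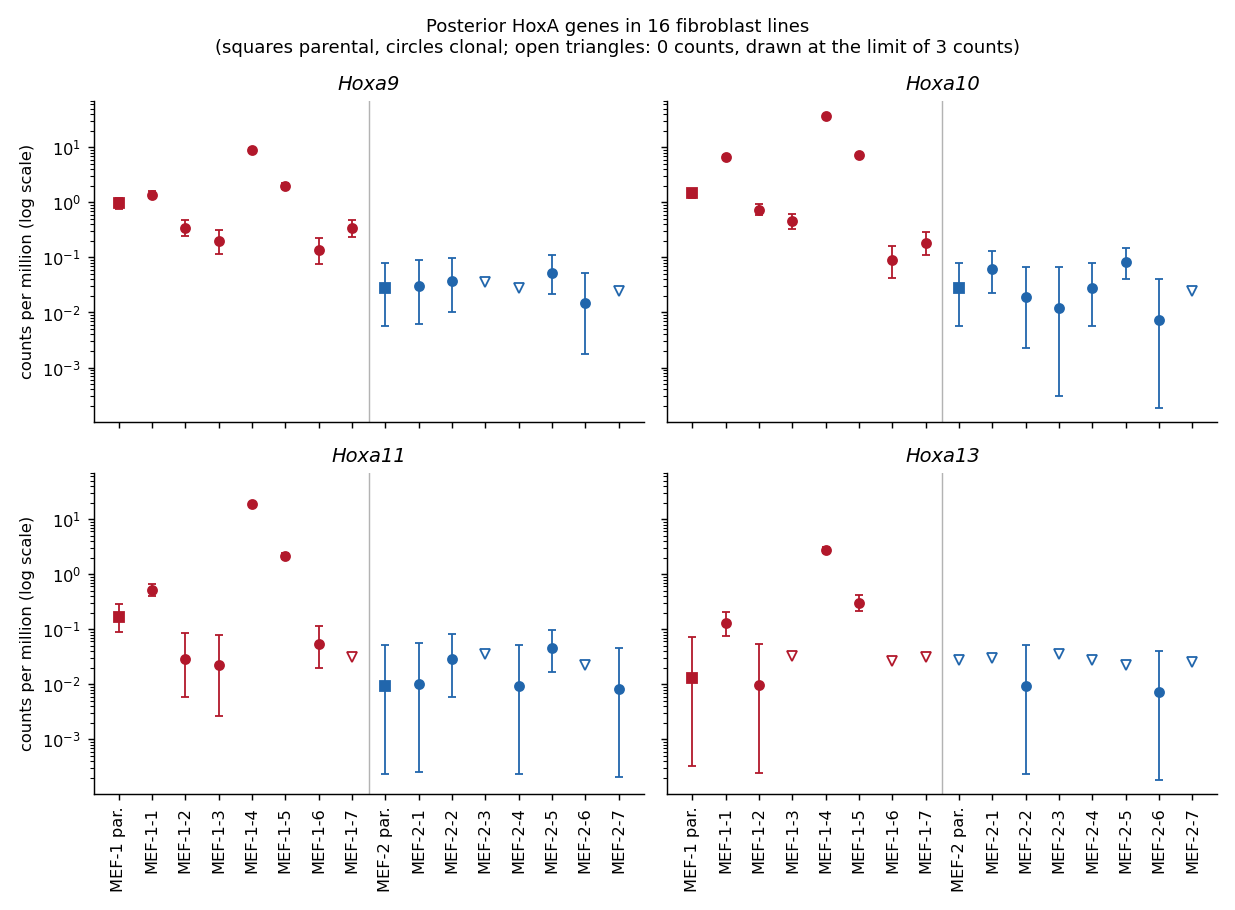
CPM (log axis, 1 panel per gene) of Hoxa9, Hoxa10, Hoxa11 and Hoxa13 in each of the 16 lines, with exact 95% counting intervals as bars. Squares are parental and circles clonal lines, and open triangles mark lines with 0 counts, drawn at their limit of 3 counts. In every panel MEF-1 clone 4 is highest (9.06, 36.8, 19.0 and 2.79 CPM), followed by clones 5 and 1, and the MEF-2 lines reach at most 0.0829 CPM.

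The order of the MEF-1 lines was the same at the top for all 4 genes, namely clone 4, clone 5, clone 1 and the parental line. Counts scaled by library size factors were compared between neighbours by their exact 95% counting intervals, a description of these libraries, as each line has 1. From clone 4 to clone 5 the level of Hoxa9 differed 4.24-fold (3.69 to 4.89) and that of Hoxa10 4.86-fold (4.52 to 5.23). For Hoxa11 the same step was 8.40-fold (7.40 to 9.57) and for Hoxa13 8.74-fold (6.23 to 12.6). The step was thus larger for the 2 genes at the 5′ end than for Hoxa9 and Hoxa10, beyond counting error. From clone 5 to clone 1 the difference was smaller, with 1.52-fold for Hoxa9 (1.25 to 1.85), 1.11-fold for Hoxa10 (1.01 to 1.22), 4.36-fold for Hoxa11 (3.33 to 5.78) and 2.42-fold for Hoxa13 (1.34 to 4.56). Further down, clones 2, 7, 3 and 6 followed each other for Hoxa9 with intervals that overlapped between neighbours. Clone 7 was still 2.40-fold above clone 6 for this gene (1.27 to 4.75). For Hoxa13 the parental line and clones 2, 3, 6 and 7 were not distinguishable at this depth.

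Clone 4 alone held 66.4% of the scaled Hoxa9 counts of the 7 MEF-1 clones, 69.9% of those of Hoxa10, 86.8% of those of Hoxa11 and 85.8% of those of Hoxa13. Clones 1, 4 and 5 together held 92.3% for Hoxa9 and 99.7% for Hoxa13. The parental line lay between these clones and the others for Hoxa9, Hoxa10 and Hoxa11. For Hoxa13 the parental line, on 1 count, was not distinguishable from clones 2, 3, 6 and 7. The mean of the 7 clones was 1.97 times the parental level for Hoxa9, 5.02 times for Hoxa10, 18.6 times for Hoxa11 and, on 1 parental count, 35.8 times for Hoxa13. These means rest on clone 4. Without it the mean was 0.753 times the parental level for Hoxa9, 1.72 times for Hoxa10, 2.74 times for Hoxa11 and 5.70 times for Hoxa13. The median of the 7 clones was below the parental line for each gene (for Hoxa13, on 1 count in each), and 4 of the 7 clones were below it.

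Levels of different genes were set side by side per kilobase of merged exons. In clone 4, Hoxa10 was at 11.2 and Hoxa11 at 8.32 CPM per kilobase, and Hoxa9 (1.62) and Hoxa13 (1.13) were lower. In the MEF-1 parental line, Hoxa10 was at 0.453, Hoxa9 at 0.175, Hoxa11 at 0.0732 and Hoxa13 at 0.00521 CPM per kilobase. Hoxa11 was thus above Hoxa9 in clone 4 and below it in the parental line.

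The share that each gene took of the summed counts of the 4 genes also differed between lines. Hoxa11 made up 28.1% in clone 4 (exact 95% interval 27.0 to 29.2) and 18.4% in clone 5 (16.5 to 20.5), but 5.87% in clone 1 (4.58 to 7.40) and 6.34% in the parental line (3.42 to 10.6). Hoxa13 made up 4.12% in clone 4, 2.60% in clone 5 and 1.49% in clone 1. Clones 1 and 5, which differed 1.11-fold in Hoxa10, were therefore further apart in Hoxa11. In clones 6 and 7, on 31 and 51 counts in all, the share of Hoxa9 was 48.4% (30.2 to 66.9) and 64.7% (50.1 to 77.6), against 13.4% in clone 4.

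**Figure D2:**
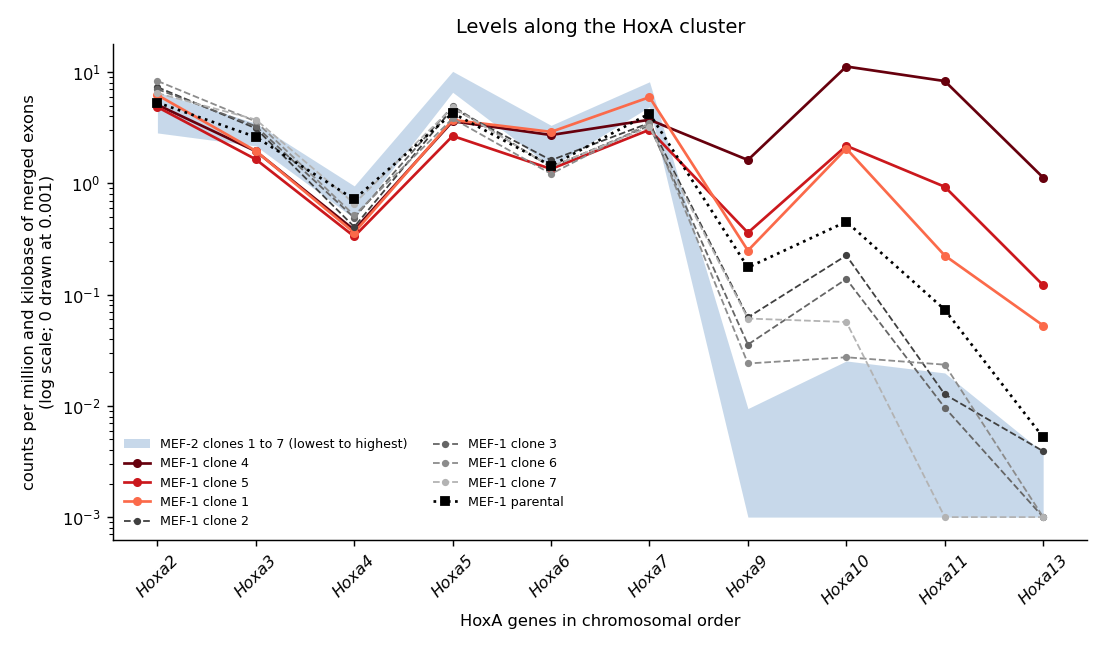
CPM per kilobase of merged exons (log axis, 0 drawn at 0.001) of 10 HoxA genes in chromosomal order, with a line for each MEF-1 clone and the MEF-1 parental line and a band from the lowest to the highest MEF-2 clone. From Hoxa2 to Hoxa7 the lines run close together, and from Hoxa9 to Hoxa13 they fan out, with clone 4 on top and the band lowest for Hoxa9 and Hoxa10 and overlapping some MEF-1 clones for Hoxa11 and Hoxa13.

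The values as deposited give a different picture of the size of these differences. On the rlog scale the MEF-1 clones covered a range of 4.60 for Hoxa9, 5.77 for Hoxa10, 6.58 for Hoxa11 and 7.68 for Hoxa13. A range of 2 or more was found for all 4 and for 869 of 15278 protein-coding genes of mean rlog above 0 (5.69%), a share given only for orientation, as the genes were chosen by this spread. Ranges as large as theirs were found for 56, 24, 11 and 4 genes, themselves included. These ranks too are given only for orientation. Without clone 4, the MEF-1 range was 2.79 for Hoxa9, 4.42 for Hoxa10, 4.67 for Hoxa11 and 3.04 for Hoxa13. Ranges in the MEF-2 clones, which the choice did not use, were 0.74 for Hoxa9, 0.94 for Hoxa10, 0.93 for Hoxa11 and 0.40 for Hoxa13 (0.26 without clone 2). On this scale none of the 4 had a MEF-2 range of 2 or more (4.7% of all genes did). On the log2 scale of scaled counts plus 1, a scale chosen after seeing the data and without shrinkage, the MEF-2 ranges were 2.69 for Hoxa9, 3.26 for Hoxa10, 2.51 for Hoxa11 and 1.05 for Hoxa13, on the 0 to 11 counts given above. On the rlog scale the median range of all genes in MEF-2 was 0.46.

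The deposited value of Hoxa13 in clone 4 is 8.76, above the 8.45 of Hoxa11 in the same clone, although 266 counts stand behind the first and 1815 behind the second. The log2 of the scaled count itself was 8.15 for Hoxa13 and 10.92 for Hoxa11. For Hoxa9 and Hoxa10 in clone 4 the deposited values (8.66 and 9.79) lie below the log2 of their scaled counts (9.85 and 11.87). The high values of Hoxa9, Hoxa10 and Hoxa11 were thus drawn towards the gene mean, while that of Hoxa13 in clone 4 was not, and the order of the 4 ranges on the rlog scale is not that of the counts.

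**Figure D3:**
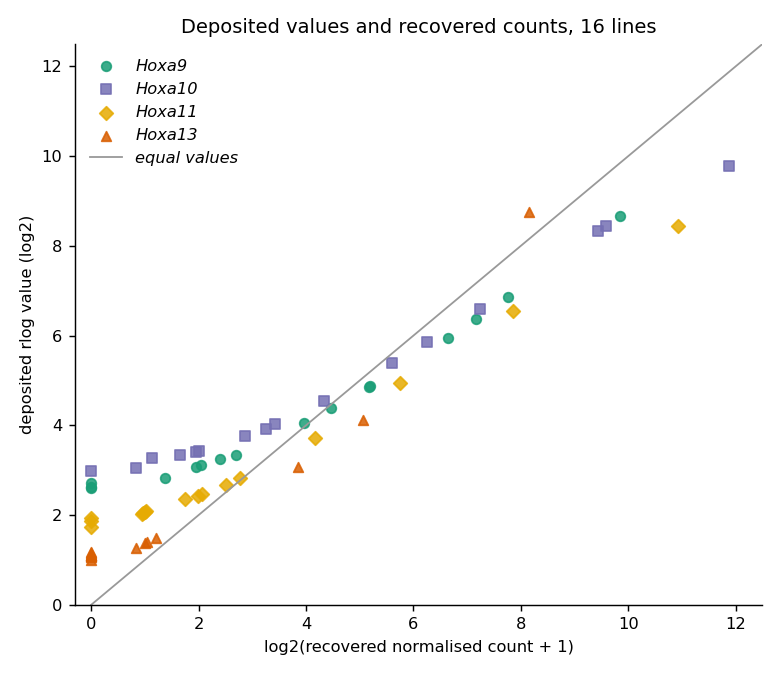
Deposited rlog value (log2) against log2 of the scaled count plus 1 for the 4 posterior genes, with 1 point per line and the diagonal of equal values. Most high values lie below the diagonal, and the Hoxa13 value of MEF-1 clone 4 (8.76) lies above it.

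The 4 genes moved together among the MEF-1 clones. Pearson's r of the rlog values lay between 0.88 and 0.96 over the 6 pairs of genes in the 7 MEF-1 clones, and between 0.86 and 0.95 over all 14 clones with the mean of each set taken away. In the MEF-2 clones, with counts near 0, r ran from −0.41 to 0.78. These values describe lines that share library and depth for all genes, and the genes were chosen on the same values.

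Mean levels of the clones were then compared between MEF-1 and MEF-2, with limma on the rlog values and adjustment over 15278 genes. Hoxa9 was 5.72 ± 1.65 in the MEF-1 clones and 2.93 ± 0.31 in the MEF-2 clones (log2, SD, n = 7 each), with a difference (MEF-2 minus MEF-1) of −2.80 ± 0.58 (SE; limma, adjusted p = 0.00084). Hoxa10 was 6.63 ± 2.21 and 3.39 ± 0.35, with a difference of −3.24 ± 0.77 (adjusted p = 0.00237). Hoxa11 was 4.20 ± 2.51 and 2.14 ± 0.32, and its difference of −2.06 ± 0.87 did not pass the threshold of 0.05 (adjusted p = 0.0549). Hoxa13 was 2.96 ± 2.82 and 1.16 ± 0.14, and its difference of −1.80 ± 0.96 did not pass either (adjusted p = 0.125). The fit takes a common variance for both sets, although the SD was larger in the MEF-1 clones for each of these genes.

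Of the 4 genes, 2 were called, and these lie higher in MEF-1. Across all genes tested, 8569 (56.1%) were called and 4364 (28.6%) were called higher in MEF-1, so that a call in this comparison was common. Every MEF-1 clone was above every MEF-2 clone for Hoxa9 and Hoxa10, as for 13.6% of all genes, while for Hoxa11 and Hoxa13 the sets overlapped. This separation was narrow. The nearest clones, MEF-1 clone 6 and MEF-2 clone 5, had 10 and 11 Hoxa10 counts (0.0894 and 0.0829 CPM), with overlapping counting intervals. For Hoxa9 the same clones had 15 and 7 counts, and their intervals overlapped as well. MEF-1 clones 2, 3 and 7, with 3, 2 and 0 Hoxa11 counts, were below MEF-2 clone 5 with 6. As the choice of genes drew on the MEF-1 values, this comparison is not independent of it. Without MEF-1 clone 4 the difference of Hoxa13 was −0.83 (adjusted p = 0.127) and that of Hoxa11 was −1.35 (adjusted p = 0.085), and the difference of Hoxa11 passed when MEF-1 clone 2, 3, 6 or 7 was left out (adjusted p = 0.0374, 0.0361, 0.0452 and 0.0255).

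Noncoding RNAs of the posterior cluster were compared with the genes beside them. Hoxa11os, transcribed across Hoxa11 on the opposite strand (chr6:52244393-52249799), had 1 count in the MEF-1 parental line and 51, 1, 1, 720, 105, 5 and 0 counts in clones 1 to 7. Its values followed those of Hoxa11 with r = 0.99 over the 14 clones, and from clone 4 to clone 5 it differed 8.79-fold (7.15 to 10.9), against 8.40-fold for Hoxa11. The library kit keeps the strand, but whether the counting used it is not given in the sources used here, so that reads of Hoxa11 and Hoxa11os may be mixed and both values are uncertain. Hottip, an RNA that starts upstream of Hoxa13 (chr6:52262775-52267603) and is known to recruit an activating histone methyltransferase complex, had 4 counts in clone 4, 2 in clone 5, 1 in clone 1 and 0 in all other lines.

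The 3′ part of the cluster did not spread in this way. The 6 genes from Hoxa2 to Hoxa7 had 58 to 2425 counts in the MEF-1 clones. Hoxa3, which acts in the pharyngeal arches, was at 15.7 CPM in the MEF-1 parental line and at 11.8, 18.8, 19.7, 11.7, 9.90, 21.7 and 22.5 CPM in clones 1 to 7. Its lowest clones were 5, 4 and 1, in that order, and r with Hoxa10 was −0.96 in MEF-1, 0.50 in MEF-2 and −0.83 over the 14 clones. Hoxa2, Hoxa4 and Hoxa5 also went against Hoxa10 in MEF-1 (r = −0.87, −0.85 and −0.71), but not in MEF-2 (0.40, 0.83 and 0.79). Hoxa6 went with Hoxa10 (r = 0.76 in MEF-1 and 0.65 over the 14 clones) and was at 2.54 CPM in clone 1, 2.38 CPM in clone 4 and 1.06 to 1.41 CPM in the other MEF-1 clones. Hoxa7, the neighbour of Hoxa9, was at 17.1 CPM in clone 1 and between 8.73 and 10.7 CPM in the other MEF-1 clones, with r = 0.34 to Hoxa10 over the 14 clones. Of the 6 genes, 3 were higher in MEF-2 and 0 were higher in MEF-1 (limma), the 3 being Hoxa4 (0.37), Hoxa5 (0.73) and Hoxa7 (0.53, all log2, MEF-2 minus MEF-1). Over all genes, 27.5% were called higher in MEF-2 and 56.1% in either direction. Hoxa2, Hoxa3 and Hoxa6 did not pass. The other noncoding RNAs, Hoxaas3, Hoxaas2 and Hotairm1, had 35 to 83, 393 to 893 and 76 to 214 counts in the MEF-1 clones, and Halr1 had at most 3.

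The genes next to the cluster were looked at for differences of the whole region. On the 3′ side lie Skap2, Snx10 and Cbx3, and on the 5′ side Evx1, Hibadh and Tax1bp1. Evx1, a homeobox gene 52.6 kb from Hoxa13, had at most 1 count in any line. The other 5 had rlog ranges of 0.28 to 0.35 over the MEF-1 clones, against 4.60 to 7.68 for the posterior genes. Skap2, an adaptor protein 149.9 kb from Hoxa2, had 8002, 5497, 6594, 5184, 6942, 7902 and 7148 counts in clones 1 to 7. Between the sets, Hibadh (−0.56, adjusted p = 2.92e-06), Snx10 (−0.71, adjusted p = 0.00081) and Tax1bp1 (−0.14, adjusted p = 0.0126) were higher in MEF-1 by limma, and Skap2 and Cbx3 did not pass. Over all genes, 28.6% were called higher in MEF-1 and 56.1% in either direction, so that such calls were common.

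Paralogs of the posterior genes in the other Hox clusters were nearly silent in all lines, with 1 exception. Of the 12 paralogs of groups 9 to 13, 10 had at most 3 counts in every line (Hoxc9, Hoxc10, Hoxc11, Hoxc12, Hoxc13, Hoxd9, Hoxd10, Hoxd11, Hoxd12 and Hoxd13), and 5 of these had none. Hoxb9, the paralog of Hoxa9 on chromosome 11, had 1563 counts in the MEF-1 parental line and 8332, 66, 56, 5224, 9493, 7 and 12 counts in clones 1 to 7. The same clones were high as for the posterior HoxA genes, but clone 4 held 27.6% of the scaled Hoxb9 counts of the MEF-1 clones and was below clones 5 and 1. In MEF-2, Hoxb9 had 0 to 7 counts per line. Its difference (MEF-2 minus MEF-1) was −4.50 ± 1.33 (limma, adjusted p = 0.0098). Hoxb13, the paralog of Hoxa13, had 10, 1, 1, 5, 4, 0 and 1 counts in MEF-1 clones 1 to 7 and at most 1 in MEF-2. Its difference was −0.37 (limma, adjusted p = 0.0177), on 23 counts over all lines. The mean rlog value of Hoxb13 was 0.25 for MEF-1 clones but −0.12 for MEF-2 clones, which all had 0 counts. Hoxb13 thus met the filter of a mean above 0 only through its MEF-1 values. Its call depends in part on that filter and is given as a description.

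**Figure D4:**
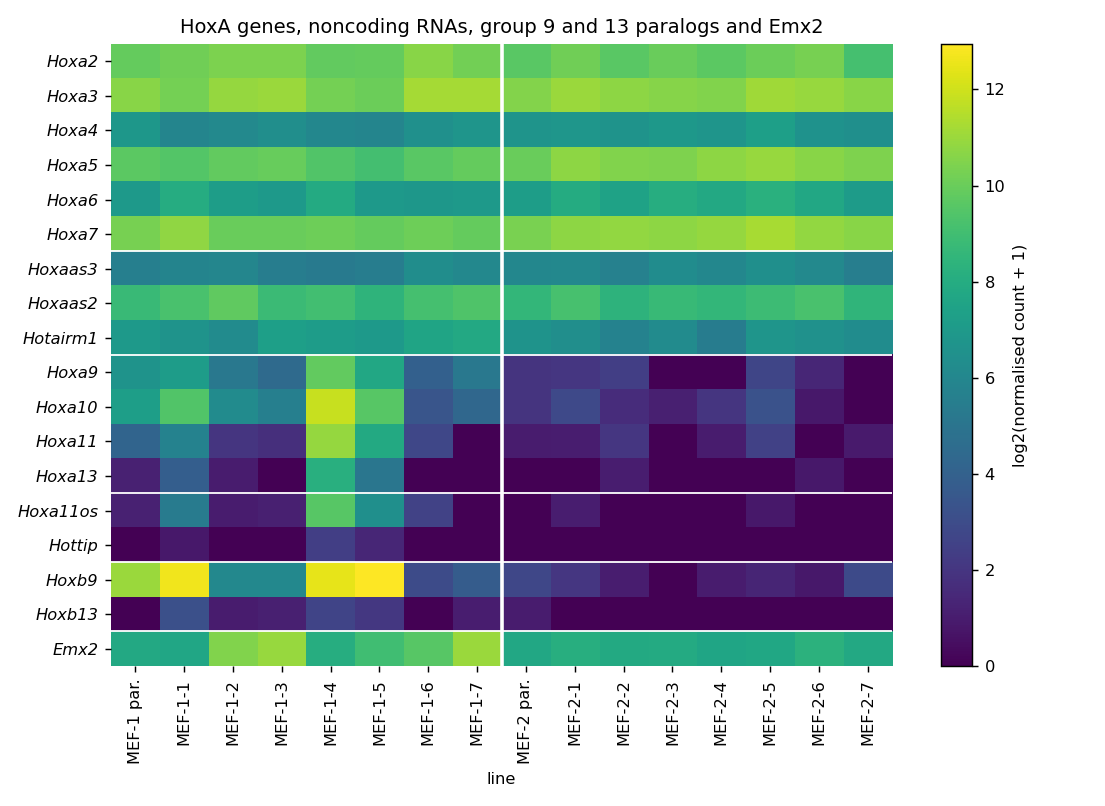
Log2 of the scaled count plus 1 (colour scale) in the 16 lines for the HoxA genes, noncoding RNAs of the cluster, Hoxb9, Hoxb13 and Emx2, with lines as columns and genes as rows. MEF-1 clones 1, 4 and 5 stand out for Hoxa9 to Hoxa13, Hoxa11os and Hoxb9, while the rows of Hoxa2 to Hoxa7 have like colours in all lines.

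TALE homeodomain proteins bind DNA together with HOX proteins. Of 8 TALE cofactors, all were tested. Of these, Pknox2 was higher in MEF-1 (−2.29), and Meis2, Pbx4 and Pknox1 were higher in MEF-2, while Meis1, Meis3, Pbx2 and Pbx3 did not pass (limma). The 4 of 8 called are near the 56.1% called over all genes. The median difference of the list was 0.06, against −0.004 for all genes. Meis1, which marks the proximal limb, was at 12.6 CPM in the MEF-1 parental line and at 22.6, 22.9, 22.8, 13.3, 12.6, 21.2 and 25.6 CPM in clones 1 to 7.

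Genes described as targets of posterior HOXA proteins were called in both directions. Of the 11 tested of 12, 2 were higher in MEF-1, namely Emx2 (−1.16) and Itga8 (−0.73), and 5 were higher in MEF-2, namely Cdkn1a (2.61), Epha7 (1.77), Itgb3 (1.46), Bmp2 (1.29) and Six2 (1.10), with a list median of 0.13 (limma, log2). The 7 of 11 called are near the 56.1% called over all genes. Bmp7, Gdnf, Runx2 and Meis1 did not pass, and Aldh1a2 had a mean below the limit. Emx2, a homeobox gene of the urogenital tract and forebrain that HOXA10 is described to repress, was at 1.96, 13.9, 19.0, 2.59, 4.69, 6.93 and 20.03 CPM in MEF-1 clones 1 to 7, at 2.20 CPM in the parental line and at 1.79 to 3.00 CPM in the MEF-2 lines. Its lowest MEF-1 clones were 1, 4 and 5, in that order. A part of Hoxa10 in these levels was not tested. Itga8, an integrin subunit, was at 83.9, 71.6, 33.7, 94.0, 53.8, 34.2 and 13.2 CPM in MEF-1 clones 1 to 7.

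Of 26 limb patterning genes, 19 were tested and 7 had at most 3 counts in every line. Higher in MEF-1 were 9, led by Msx1 (−4.57), Tbx18 (−2.34) and Shox2 (−2.16), a gene of the proximal limb. Higher in MEF-2 were 3, namely Grem1 (2.61), Lhx9 (1.21) and Irx3 (0.76), and the list median was −0.39. Of 23 chromatin regulators of Hox clusters, 6 were higher in MEF-1, led by the Polycomb genes Cbx7 (−3.07), Ezh1 (−0.73) and Cbx6 (−0.67). A further 8 were higher in MEF-2, led by Cbx2 (0.99), Ezh2 (0.97) and Suz12 (0.42), also of Polycomb, and the list median was 0.01. With 56.1% of all genes called in either direction, 12 of 19 and 14 of 23 are near the background. By direction, 28.6% of all genes were called higher in MEF-1 and 27.5% higher in MEF-2. Against these shares the limb list leaned to MEF-1 (9 of 19, against 3 of 19 higher in MEF-2), a lean that was not tested.

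For each posterior gene, the 5 protein-coding genes with the most similar profile were taken by Pearson's r of the rlog values over the 14 clones, with the mean of each set removed. For Hoxa13 the closest was Mcoln3, which encodes an endolysosomal cation channel, with r = 0.99 and 17, 2, 0, 125, 30, 3 and 2 counts in MEF-1 clones 1 to 7. Its neighbour on chromosome 3, Mcoln2, was second (r = 0.96), followed by Rxfp1 and Hoxa9. For Hoxa11 the closest were Rxfp1 (0.97), the homeobox genes En2 (0.97) and Vax2 (0.96), Hoxa9 and Sox18. Vax2 had 107, 2, 4, 292, 73, 6 and 1 counts in the MEF-1 clones.

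For Hoxa9 the closest were En2 (0.96), Hoxa11, Rxfp1, Hoxa13 and Hoxa10, so that the other 3 posterior genes were among its 5. En2 had 56, 8, 4, 105, 47, 8 and 5 counts in MEF-1 clones 1 to 7. For Hoxa10 the closest were B4galnt2, Acot4, Hoxb6, Hoxb5 (0.96, 0.96, 0.96 and 0.95) and Itga7 (0.95). No gene of its own cluster was among these 5, but Hoxa9 was close to the cut (r = 0.945, against 0.951 for Itga7). Hoxb6 had 1737, 104, 34, 1017, 1478, 6 and 18 counts and Hoxb5 had 672, 29, 12, 447, 509, 5 and 2 counts in the clones, with clone 1 highest in each. Itga7, an integrin subunit of muscle, differs from these in that it was also present in MEF-2 (750 to 2313 counts). Rxfp1 rests on at most 14 counts in any MEF-1 clone.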

How the data were processed

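Total RNA of 16 lines was sequenced with strand-keeping libraries as 150 bp paired reads. According to the submitters' processing notes and the methods of the paper, the authors trimmed reads with Trim Galore 0.6.0, quantified transcripts with Salmon 1.5.2 against mm10, and made rlog values with DESeq2 1.24.0. The authors deposited these log2 values, 1 per gene and line, with size factors and shrinkage included. How transcripts were summed to genes and whether counting used the strand is not given in the sources used here. The methylation data were not analysed here.

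Whole counts were recovered by inverting the transformation. A gene was taken as recovered when the forward transformation of whole counts met all its values within 1e-06 on the log2 scale. Size factors were 0.767 to 1.28. Recovered counts gave CPM, exact Poisson and binomial 95% intervals and alternatives. As the deposited unit is log2, the tests used limma 3.58.1 (R 4.3.3; trended prior, two-sided, Benjamini-Hochberg, threshold 0.05) on rlog values of 7 MEF-1 against 7 MEF-2 clones, over 15278 protein-coding genes of mean above 0. No p was computed from the recovered counts except in an alternative. Genes were matched to GENCODE M21 (mm10), and promoter sequences are from RefSeq. The recovery of counts and the limma step were tested on simulated data. Python 3.11.15 was used for the rest.

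The members and lists were chosen with earlier results of these data known. Genes named are the posterior genes, all genes of lists of 12 or fewer, of longer lists up to 3 called genes per direction, taken by size of difference, the 3 nearest protein-coding genes on each side of the cluster, and for each posterior gene the 5 with the highest r. Alternatives changed the filter, the genes included, the lines, the prior, the scaling, the block and the scale, and left out each clone. Some genes of the lists and of the 5 are not reported here. Clones were grouped by the sample labels.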

Additional observations from a re-analysis of the deposited data

Results flagged for a closer look

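In 24 groups of 7 clones (10 HoxA genes, Hoxa11os and Hoxb9 in each set), the highest or lowest clone was compared with its nearest neighbour by Dixon's ratio, with 0.568 as the limit. Of these groups 2 were flagged, and chance flags about 1 in 20 of groups not chosen on their values. The posterior genes were picked for their spread among these MEF-1 clones, so that the rate does not apply to Hoxa13, whose value is given as a description. In the MEF-1 clones, Hoxa13 stood at an rlog value of 8.76 in clone 4 and at 4.13 in the next clone (ratio 0.604), on 266 and 39 counts. Hoxa7 stood at 10.69 in clone 1 and at 10.21 in the next, clone 4 (ratio 0.770), on 2234 and 1025 counts. Scaled by library size factors, these are 1763 and 1093 counts.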

How the results depend on the processing

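The difference of Hoxa11 passed the threshold with the parental lines added (−2.01, adjusted p = 0.0336). With the clone number as a replicate block, the difference of Hoxa11 was −2.06 (adjusted p = 0.0454) and 8222 genes were called. The labels do not say that the numbers pair the clones. Same-numbered clones correlated weakly, by −0.13 to 0.20. Of the MEF-1 clones 1 of 7, and of the MEF-2 clones 4 of 7, correlated best with their own number. These values do not settle whether the block is warranted. The block changed no other call among the posterior genes. Hoxa11 and Hoxa13 gave no value with the 40th percentile filter, as their means over the lines lay below it. The number of genes called was 7745 to 10297 over 9 alternatives, and the differences of Hoxa9 (adjusted p 0.000204 to 0.00295) and Hoxa10 (0.000704 to 0.0128) passed in all 9. Adjusted p of Hoxa11 ran from 0.0336 to 0.108 and of Hoxa13 from 0.113 to 0.218 over the 8 that gave a value. With limma-voom on the recovered counts, an alternative chosen after seeing the data, the differences were −5.57, −6.001, −3.76 and −2.80 for Hoxa9, Hoxa10, Hoxa11 and Hoxa13, with shrinkage absent by construction.

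Leaving out each clone in turn gave −3.07 to −2.31 for Hoxa9, −3.67 to −2.71 for Hoxa10, −2.45 to −1.35 for Hoxa11, −2.11 to −0.83 for Hoxa13 and 8022 to 8669 genes called. The range over the MEF-1 clones was then 2.79 to 4.60 for Hoxa9, 4.42 to 5.77 for Hoxa10, 4.67 to 6.58 for Hoxa11 and 3.04 to 7.68 for Hoxa13. The lowest of these values are those without clone 4. Over the MEF-2 clones the range of Hoxa13 was 0.26 to 0.40. The mean of the MEF-1 clones over the parental line was 0.753 to 2.27 for Hoxa9 (below 1 without clone 4). On the log2 scale of scaled counts plus 1, also chosen after seeing the data, the ranges were 8.44 for Hoxa10 and 10.92 for Hoxa11 in MEF-1, and 2.69 for Hoxa9, 3.26 for Hoxa10, 2.51 for Hoxa11 and 1.05 for Hoxa13 in MEF-2. At 0 to 11 counts, the order of the MEF-2 lines could not be read at this depth.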
